A study of Mus musculus with 63 samples.

Results

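Pdk4 and 9 genes of lipid uptake, binding, storage, oxidation and efflux were followed in peritoneal macrophages of mice. The set holds Pdk4 (ENSMUSG00000019577), Cpt1a (ENSMUSG00000024900), Plin2 (ENSMUSG00000028494), Angptl4 (ENSMUSG00000002289), Fabp4 (ENSMUSG00000062515), Fabp5 (ENSMUSG00000027533), Lpl (ENSMUSG00000015568), Cd36 (ENSMUSG00000002944), Pparg (ENSMUSG00000000440) and Abcg1 (ENSMUSG00000024030). The genes were selected by symbol, and all 10 were found among the 56748 genes of the deposited count table. All 10 also passed the filter on low counts, which kept 22147 genes. The set was chosen by someone who knew earlier results of these same libraries, and which values led to each gene is not recorded. The tests below therefore describe the size of a difference against the spread of these libraries, and they are not independent evidence for it.

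Peroxisome proliferator-activated receptors (PPARs) are nuclear receptors that bind fatty acids and their derivatives. Each pairs with a retinoid X receptor on DNA and raises transcription of genes for taking up, carrying, storing and burning fat. Pparg encodes PPARγ, the form best known in fat cells and in macrophages that load lipid. Liver X receptors (LXRs) sense oxidised cholesterol in a similar way and raise genes that export it. Pyruvate dehydrogenase kinase 4, the product of Pdk4, shuts the pyruvate dehydrogenase complex, so that fatty acids rather than glucose feed the mitochondria, and its gene is a common PPAR target. Macrophages activated by interferon-gamma (IFN-γ) are known for glucose-based metabolism, and lipid-loaded macrophages for high lipid droplet and fatty acid transport genes.

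The animals carried the R1441C change in their own Lrrk2 gene (knock-in) or were wild-type B6 controls. Lrrk2 encodes leucine-rich repeat kinase 2, and the study asked how this change alters myeloid cell functions by sex and age. All animals had received 3% thioglycollate 72 h before harvest, so every group holds elicited rather than untouched macrophages. The cells were left to adhere, and those labelled IFN received 100 U of IFN-γ for 18 h, while those labelled untreated received vehicle. The design text gives 18 to 21 months for old and 2 to 3 months for young animals. Genotype, sex, age and treatment labels form 16 groups of 63 libraries. There were 5 libraries in 8 groups, 3 libraries in 7 groups, and 2 libraries in the knock-in young IFN female group. No label says whether libraries of a group came from separate animals, so the p-values measure the spread between libraries, which may be technical.

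Total counts ran from 73.6 to 106.6 M per library. IFN-γ-induced genes followed the age label rather than the treatment label. Gbp2, a strongly IFN-γ-induced GTPase, was at 4372 to 7510 CPM (a gene's share of the counts of its library, adjusted by TMM) in all 36 old libraries, whereas the 27 young ones spanned 13.5 to 883 CPM. Between the treatment labels its ranges overlapped, with 16.7 to 6663 CPM in 33 IFN libraries and 13.5 to 7510 CPM in 30 untreated ones. Cxcl9, an IFN-γ-induced chemokine, was at 952 to 4071 CPM in old and at 0.956 to 330.1 CPM in young libraries. The level of IFN-γ-responsive genes and the age label therefore cannot be told apart in these data. B cell transcripts, by contrast, were mostly higher with the IFN label, although their ranges also overlapped. The summed level of 5 B cell markers was 17.2 to 1112 CPM in IFN libraries, with a median of 77.9. In untreated libraries it was 4.98 to 43.7 CPM, with a median of 14.0. Whether the age and treatment labels stand on the right libraries, or were exchanged, was not tested, so old, young, IFN and untreated name labels here and every value by age or treatment holds for the labels only. Lrrk2 itself was at 80.2 to 269.3 CPM in old and 23.4 to 182.4 CPM in young libraries, while its ranges in knock-in (23.4 to 269.3 CPM) and wild-type libraries (24.3 to 226.2 CPM) overlapped. The base change cannot be read from counts. Knock-in old IFN females 4 and 5 had 1.69 and 1.55 CPM of Xist and 0.624 and 0.601 CPM of Ddx3y, so that Xist lay in the range of the male libraries (0 to 14.7 CPM) and Ddx3y in that of the other female libraries (0 to 8.93 CPM); the other 31 female libraries had at least 120.1 CPM of Xist. The 3 knock-in old untreated male libraries carry a treatment tag of interferon-gamma beside an untreated title, and were used as untreated.

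A pair of wild-type IFN female libraries, old 2 and young 1, also stood apart. The summed level of 5 B cell markers was 691 and 1112 CPM in them, against 4.98 to 222.3 CPM in the other 61 libraries. The summed level of 5 markers of resident large peritoneal macrophages was 475 and 263.3 CPM, against 17.4 to 131.5 CPM elsewhere. The summed level of 7 macrophage markers, 25073 and 28492 CPM, lay within the range of the others (18759 to 38414 CPM). These libraries also held the lowest Fabp5 and Pparg of all. Of the 7 adipocyte markers Lep was at 0 in all 63 libraries, Adipoq in 38 and Cidec in 47, and the list summed to 0 to 0.716 CPM. This sum was small beside the macrophage markers but not beside Pdk4, which had a median of 0.0442 CPM over the 63 libraries. It was highest in wild-type young IFN female 1, which also held the highest Pdk4 (2.41 CPM).

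Promoter sequences were read from RefSeq on GRCm38.p6 to show what PPAR-type sites lie next to these genes. Entries were matched for 5 of the 10 genes, Plin2, Cd36, Pdk4, Pparg and Cpt1a. The PPAR-type motif searched on both strands was AGGTCA, the core that nuclear receptors recognise, written TGACCT on the other strand. It was present in 14.0% of 32851 windows of 250 bases before a transcript start. A direct repeat of 2 such cores with 1 base between them, the classical PPAR element, was present in 0.0335% of the windows. The IFN-γ-activated site TTCNNNGAA, where N is any base, was also searched and was present in 7.02%.

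The 250 bases before the start are shown for Plin2 and Cd36, which moved with the age label, and for Pdk4, which moved with the treatment label in wild-type libraries. Capitals mark the core. Each is written 5′ to 3′ on the gene's own strand.
Plin2: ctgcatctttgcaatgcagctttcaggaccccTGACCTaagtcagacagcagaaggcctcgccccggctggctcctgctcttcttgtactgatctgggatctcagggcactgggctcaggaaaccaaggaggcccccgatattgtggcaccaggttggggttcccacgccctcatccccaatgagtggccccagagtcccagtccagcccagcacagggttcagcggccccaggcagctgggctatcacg
Cd36: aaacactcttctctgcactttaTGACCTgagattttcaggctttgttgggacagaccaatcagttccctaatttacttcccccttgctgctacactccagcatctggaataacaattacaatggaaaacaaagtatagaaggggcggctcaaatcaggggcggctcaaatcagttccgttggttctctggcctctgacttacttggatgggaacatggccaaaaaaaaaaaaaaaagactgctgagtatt
Pdk4: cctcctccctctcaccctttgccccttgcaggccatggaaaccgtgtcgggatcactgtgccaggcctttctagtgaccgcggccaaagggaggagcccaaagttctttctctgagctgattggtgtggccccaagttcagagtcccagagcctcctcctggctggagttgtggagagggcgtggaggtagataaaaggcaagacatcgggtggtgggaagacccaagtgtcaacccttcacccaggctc
These windows lie at chr4:86670060-86670309, chr5:17835897-17836146 and chr6:5496279-5496528, all on the minus strand. The core began 218 bases before the start of Plin2 and 228 bases before that of Cd36, in both as TGACCT. In Cpt1a it began 94 bases before the start, and 2 of 3 windows of Pparg held it. The Pdk4 window held no match to the core. No window of these 5 genes held the direct repeat or the IFN-γ-activated site. A match is a description of the letters and not of binding.

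Compared per transcript length, as FPKM (fragments scaled by transcript length and library depth), the genes differed in level far more than most of them differed between groups. Fabp5 and Cd36, a fatty acid carrier and a surface fatty acid receptor, held the 2 highest ranks in every group, with medians of 717 and 315 FPKM over the 63 libraries. Lpl, the secreted lipase that frees fatty acids from lipoproteins, and Plin2, which coats lipid droplets, followed with 241 and 170.3 FPKM. The median was 50.6 FPKM for Fabp4, another fatty acid carrier, 35.6 FPKM for Abcg1, which exports cholesterol, and 22.7 FPKM for Cpt1a, which moves fatty acids into mitochondria. Pparg was at 9.42 FPKM, Angptl4, a secreted inhibitor of Lpl, at 0.505 FPKM and Pdk4 at 0.0124 FPKM. The last of these was the lowest of the 10 in every group.

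Between groups the 3 rarest genes varied most. The highest group mean was 76.8 times the lowest for Pdk4, 9.89 times for Angptl4, 5.64 times for Pparg and 4.33 times for Fabp4, but 1.88 times for Fabp5 and 1.42 times for Cpt1a. The Pdk4 ratio rests on wild-type young IFN female 1 and on a lowest group of 8 counts in 5 libraries, whose mean of 0.0162 CPM lies under the level that 3 counts of a library are worth. Without the pair of wild-type IFN female libraries it was 37.6. Neighbouring group means mostly lay closer than the larger of their SDs. Of the 15 steps between the 16 ordered groups, 3 exceeded it for Abcg1, Cd36 and Lpl, 1 for Angptl4, Fabp4 and Plin2, and 0 for the other 4 genes. Fabp5 has near-identical pseudogene copies, so its counts are uncertain where reads could be split among them.

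**Figure D1:**
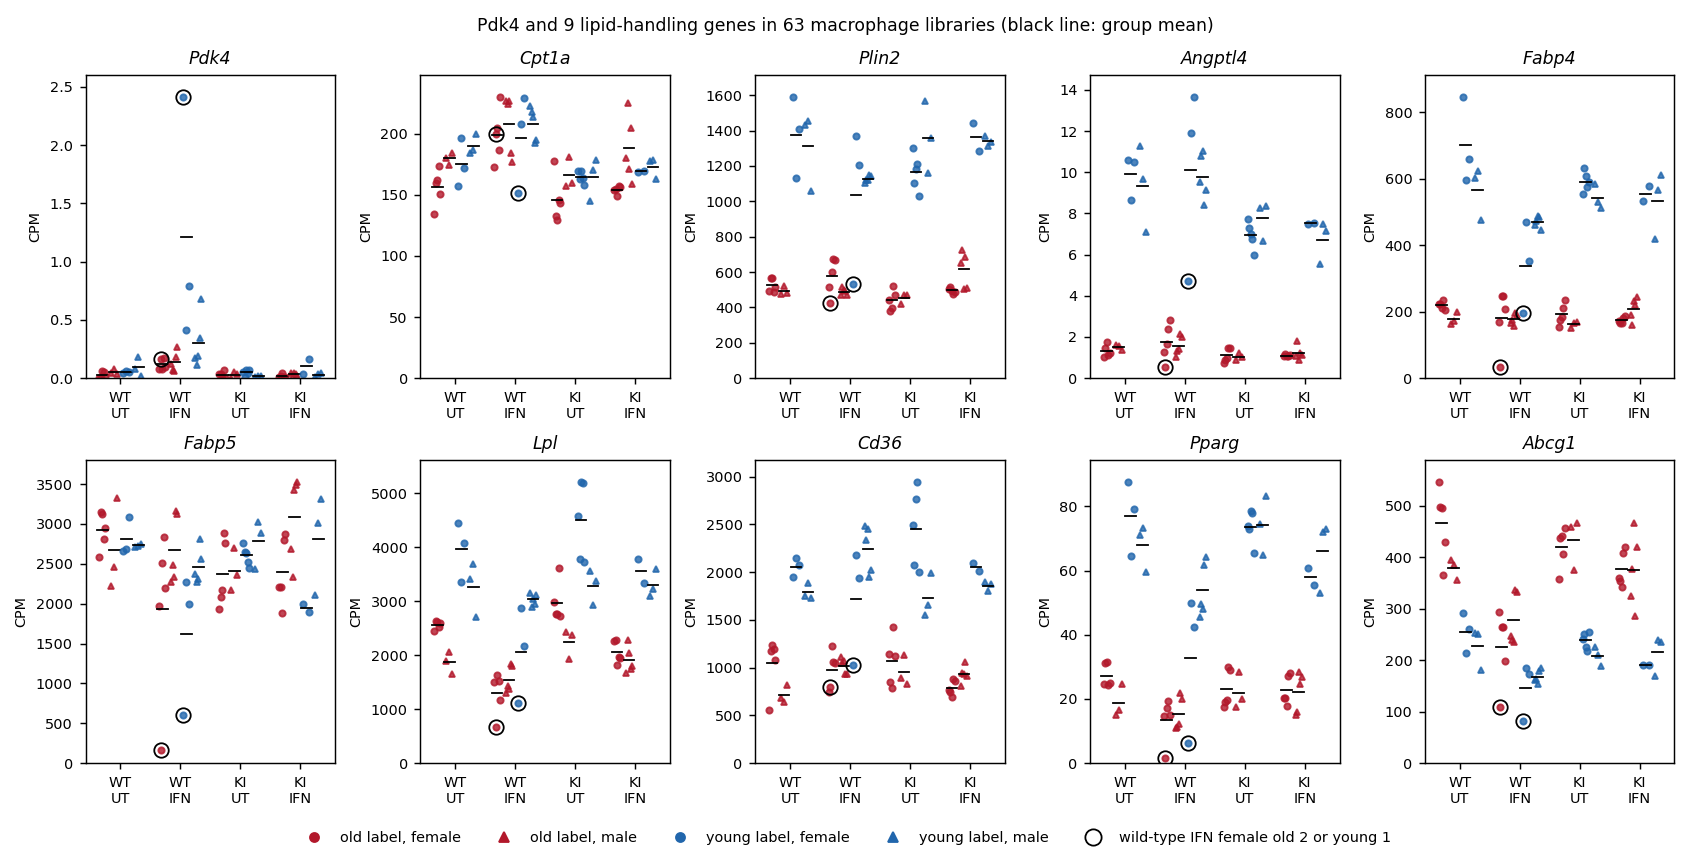
Level of each of the 10 genes in CPM (vertical axis) in every library, by genotype and treatment label (horizontal axis); red is the old and blue the young label, circles are females, triangles males, black lines group means, and rings the pair of wild-type IFN female libraries. Old libraries lie below young ones for Angptl4 (0.526 to 2.83 against 4.71 to 13.7 CPM) with no overlap, while Cpt1a spans 129 to 230.2 CPM in all 63 libraries.

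Libraries labelled old held less of 6 of the 10 genes than libraries labelled young in all 4 combinations of genotype and treatment label, and more Abcg1. The genes that were lower were Pparg, Cd36, Lpl, Angptl4, Fabp4 and Plin2, and Pdk4 joined them in wild-type IFN libraries. Fabp5 and Cpt1a did not pass the test in any of the 4. The calls were 6 lower and 1 higher in wild-type untreated libraries, against 26.7% and 24.8% of all genes tested. They were 7 and 1 in wild-type IFN libraries (25.8% and 22.9%), 6 and 1 in knock-in untreated libraries (24.3% and 23.1%), and 6 and 1 in knock-in IFN libraries (27.8% and 24.9%). The median log2 change of the 10 genes was -1.04, -1.002, -0.80 and -1.18 in that order, beside -0.06, -0.08, -0.02 and -0.07 over all genes. The background share was large, and the count is read only beside it. In bulk RNA, fewer cells of a type and less RNA per cell cannot be told apart.

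The receptor gene Pparg stood at 1.48 to 31.4 CPM with a median of 19.9 in old libraries and at 6.11 to 87.6 CPM with a median of 64.8 in young ones. Without the pair of wild-type IFN female libraries the ranges were 10.98 to 31.4 and 42.4 to 87.6 CPM and did not overlap. The log2 change from young to old was -1.68 (standard error 0.28, adjusted p = 1.49e-06) in wild-type untreated libraries, a 3.20-fold lower level. It was -1.55, -1.72 and -1.46 in wild-type IFN, knock-in untreated and knock-in IFN libraries, and the adjusted p was 5.26e-07 to 9.07e-06 over the 4.

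Cd36, Lpl and Angptl4 were each lower in old libraries, and Angptl4 separated the labels without exception. Gbp2 and Cxcl9 also did so, in the other direction. How many of all genes separate the labels, with or without the pair of wild-type IFN female libraries, was not counted. Angptl4 was at 0.526 to 2.83 CPM with a median of 1.20 in the 36 old libraries and at 4.71 to 13.7 CPM with a median of 8.28 in the 27 young ones, so that no old library reached any young one. Its log2 changes were -2.77, -2.59, -2.78 and -2.62 in the same order (adjusted p = 4.43e-17 to 8.98e-16), or 6.01-fold to 6.85-fold lower. Cd36 was at 556 to 1426 CPM with a median of 934 in old and 1032 to 2945 CPM with a median of 2000.1 in young libraries, with log2 changes of -1.15, -0.98, -1.03 and -1.19 (adjusted p = 8.46e-11 to 2.53e-09). Its ranges overlapped only through wild-type young IFN female 1, and without it young libraries began at 1550.1 CPM. Lpl overlapped between the labels, at 674 to 3610.4 CPM with a median of 1955 and 1107 to 5209 CPM with a median of 3349, and its log2 changes were smaller at -0.72, -0.81, -0.57 and -0.79 (adjusted p = 1.06e-07 to 0.000232).

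The 2 fatty acid carriers parted. Fabp4 was at 31.9 to 247 CPM with a median of 186 in old and 195 to 846 CPM with a median of 553 in young libraries, with log2 changes of -1.67, -1.16, -1.69 and -1.51 (adjusted p = 4.74e-11 to 5.3e-08). Fabp5 was at 165 to 3526 CPM with a median of 2549 in old and 597 to 3308 CPM with a median of 2636 in young libraries, and its log2 changes of 0.01, 0.19, -0.17 and 0.22 did not pass the test (adjusted p = 0.501 to 0.990). Without wild-type old IFN female 2 alone, Fabp5 was called higher in old wild-type IFN libraries at 0.37 (adjusted p = 0.0221). That fit kept wild-type young IFN female 1, the lowest young library at 597 CPM. Without both libraries, 8 of the 10 genes were called there, the same number as with all libraries. Plin2, the droplet coat gene, was at 377 to 723 CPM with a median of 497 in old and 531 to 1590.2 CPM with a median of 1212 in young libraries, and its log2 changes were -1.40, -1.03, -1.49 and -1.29 (adjusted p = 1.36e-16 to 1.89e-12). Its lowest young value came from wild-type young IFN female 1, and the other young libraries began at 1029 CPM, above every old one.

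Abcg1, the cholesterol exporter and an LXR target, went the other way. It was at 109.6 to 546 CPM with a median of 369.9 in old and 82.4 to 291 CPM with a median of 210.5 in young libraries, and its log2 changes were 0.80, 0.68, 0.94 and 0.89 (adjusted p = 8.27e-08 to 1.64e-05). The ranges overlapped. Cpt1a was at 129 to 230.2 CPM in old and 145 to 229 CPM in young libraries, with log2 changes of -0.12, 0.01, -0.08 and -0.01 and none called. The Gbp2 and Cxcl9 levels above moved with the same label as all of these changes, and the summed macrophage markers were at 18759 to 33653 CPM in old and 23709 to 38414 CPM in young libraries. The summed mesothelial and fibroblast markers, 7 of 7 found, were at 10.97 to 227.0 CPM in old and 26.8 to 345.6 CPM in young libraries. Their part in the result was not tested.

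Pdk4 was the rarest of the 10, with 796 counts in 63 libraries, and its pattern followed the treatment label in wild-type libraries. A library's floor of 3 counts was worth 0.0276 to 0.0368 CPM, so most values outside the wild-type IFN groups lie near it. Wild-type old IFN females held 0.0758, 0.166, 0.0779, 0.172 and 0.0983 CPM, or 8 to 17 counts each. Wild-type young IFN females held 2.41, 0.415 and 0.794 CPM, and the first of these, library 1, had 219 of the group's 346 counts. Wild-type IFN males held 0.121, 0.0706, 0.0599, 0.184 and 0.264 CPM when old and 0.174, 0.115, 0.186, 0.341 and 0.676 CPM when young. These 18 libraries had a median of 0.173 CPM and 624 counts in all.

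The knock-in IFN libraries were lower in each of the 4 pairings of sex and age label, with no overlap. Old females held 0.00993, 0.0201, 0.0407, 0 and 0.0104 CPM, and young females held 0.0370 and 0.167 CPM. Old males held 0.0412, 0.0212, 0.0442, 0.0312 and 0.0214 CPM and young males held 0.00955, 0.0317 and 0.0403 CPM. The 15 libraries together had 53 counts and a median of 0.0312 CPM. Untreated libraries were low in both genotypes, at 0 to 0.184 CPM and 70 counts in 14 wild-type libraries and 0 to 0.0735 CPM and 49 counts in 16 knock-in libraries. The genotypes overlapped in 3 of 4 untreated pairings and parted in young males. How many of all genes part by genotype in these pairings was not counted, and the young IFN females were 2 against 3 libraries.

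**Figure D2:**
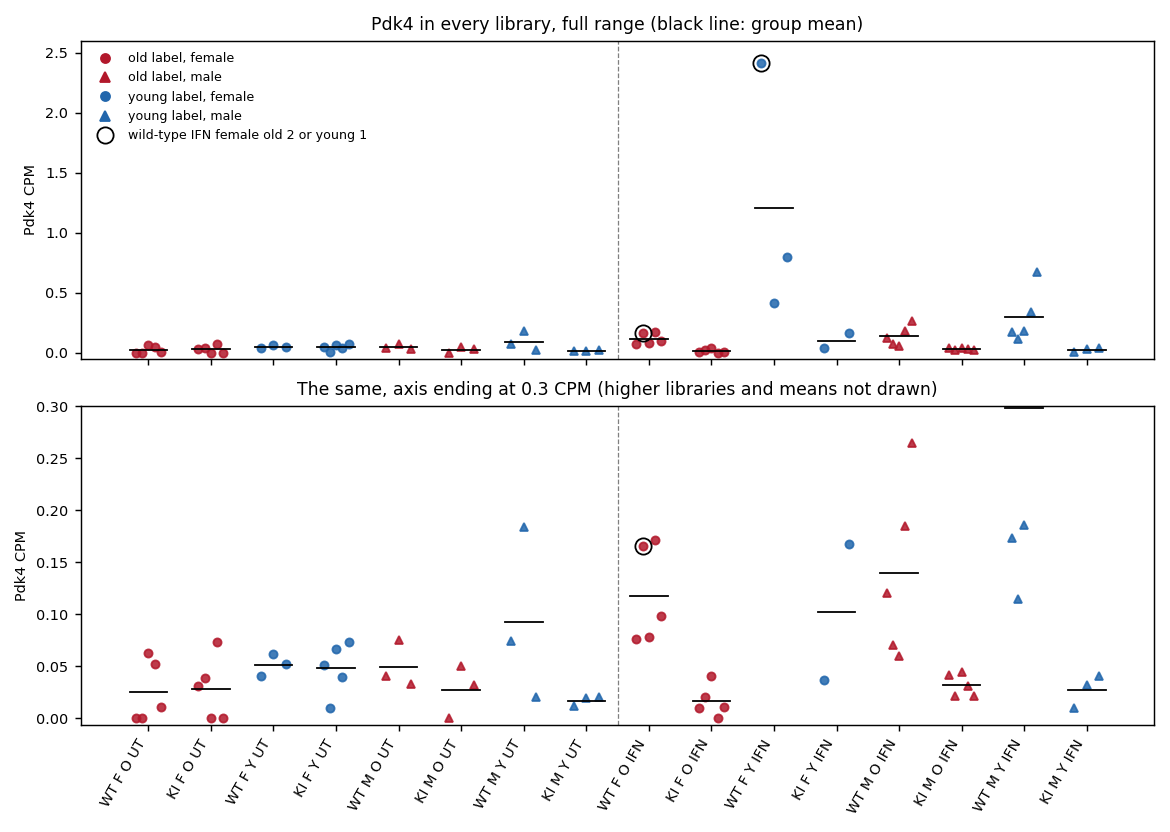
Pdk4 level in CPM (vertical axes) in each library of the 16 groups (horizontal axis), full range above and an axis ending at 0.3 CPM below, which leaves out higher libraries and means; points are libraries, black lines group means, rings the pair of wild-type IFN female libraries. Wild-type IFN libraries reach 0.0599 to 2.41 CPM, and the 15 knock-in IFN libraries stay at 0 to 0.167 CPM.

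In wild-type libraries Pdk4 rose with the IFN label. The log2 change was 1.81 (standard error 0.53, adjusted p = 0.0115) in old libraries, 3.51-fold higher, and 3.09 (standard error 0.56, adjusted p = 7.04e-05) in young ones, 8.53-fold higher. In knock-in libraries it was -0.27 (adjusted p = 0.856) in old and 0.85 (adjusted p = 0.446) in young. The difference itself, knock-in minus wild-type in the IFN label effect, was -2.16 (standard error 0.63, adjusted p = 0.0188), where 12.0% of all genes were called. Without knock-in old untreated male 4 it was -1.97 (adjusted p = 0.0551), and without all 4 libraries that stand apart it was -1.77 (adjusted p = 0.0506). With the closest libraries of a group joined, called near-identical here although none agreed within sampling noise, it was -2.62 (adjusted p = 0.172).

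Within the IFN label, knock-in minus wild-type for Pdk4 was -2.75 (standard error 0.76, adjusted p = 0.0284) in old females and -3.55 (standard error 0.94, adjusted p = 0.0224) in young females, or 6.73-fold and 11.7-fold lower. It was -2.09 (adjusted p = 0.0554) in old males and -3.41 (adjusted p = 0.201) in young males, neither called. The call in old females ended without knock-in IFN female 1, 2, 4 or 5 (adjusted p = 0.0690, 0.0551, 0.0653 and 0.0724) and without wild-type 2 (adjusted p = 0.134). The call in young females ended without wild-type 1, at -2.54 (adjusted p = 0.159), and without knock-in 1 or 2 (adjusted p = 0.396 and 0.0700). Leaving out these single libraries moved the log2 change to between -4.99 and -2.46. By DESeq2 the male changes were -2.15 (adjusted p = 0.0353) and -3.47 (adjusted p = 0.0307), both called. Without the pair of wild-type IFN female libraries the changes were -2.60 (adjusted p = 0.0935) in old and -2.54 (adjusted p = 0.146) in young females, and -2.09 (adjusted p = 0.0378) in old males.

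Markers of mast cells, 4 of 4 found, were also higher in wild-type than in knock-in IFN libraries on average. Their summed level had means of 20.3 CPM in wild-type and 4.11 CPM in knock-in old IFN females, and 38.7 and 7.33 CPM in young ones. In males the means were 13.6 and 6.22 CPM when old and 13.3 and 6.17 CPM when young. The ranges overlapped in old females (5.28 to 53.2 against 0.953 to 6.88 CPM), old males (2.85 to 24.0 against 2.25 to 12.4 CPM) and young males (4.05 to 20.4 against 2.43 to 13.4 CPM). They did not in young females (8.78 to 79.1 against 7.15 to 7.501 CPM). Summed B cell markers were at 90.0 to 690.9 CPM in wild-type and 37.9 to 222.3 CPM in knock-in old IFN females, and at 150.1 to 1112 and 99.8 to 160.2 CPM in young ones. In males they were at 17.2 to 78.6 and 26.9 to 77.9 CPM when old and at 20.5 to 104.5 and 31.6 to 69.7 CPM when young. The part of these cells in the Pdk4 difference was not tested.

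With the age label Pdk4 was lower in old wild-type IFN libraries, at -2.21 (standard error 0.44, adjusted p = 2.82e-05), and was not called in the other 3 combinations, at -0.93, -0.04 and -1.16 (adjusted p = 0.204, 0.989 and 0.139). Without the pair of wild-type IFN female libraries the first of these was -1.79 (adjusted p = 0.00153).

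Among the other genes the IFN label came with lower Lpl and Abcg1 in wild-type libraries, as the mean of both sexes. Lpl group means went from 2560 to 1301 CPM in old and 3959 to 2053 CPM in young females. In males they went from 1872 to 1547 CPM when old and 3266 to 3032 CPM when young. The female IFN means include the pair of wild-type IFN female libraries, and whether the sexes differ in this effect was not tested. Of the 10 genes, 2 were higher and 2 lower in old wild-type libraries (21.6% of all genes called), and 1 higher and 4 lower in young ones (14.9%). In knock-in libraries 1 was lower in old (5.72%) and 0 were called in young libraries by edgeR (9.24%). In these young libraries 0 were at an unadjusted p under 0.05, beside 6105 of all 22147 genes, and DESeq2 called 0. The log2 change of Abcg1 was -0.74 (standard error 0.13, adjusted p = 3.87e-05) in old and -0.62 (standard error 0.14, adjusted p = 0.00170) in young wild-type libraries, and that of Lpl -0.63 (standard error 0.12, adjusted p = 0.000227) and -0.53 (standard error 0.14, adjusted p = 0.00538). Cpt1a was slightly higher in old wild-type libraries, at 0.28 (standard error 0.07, adjusted p = 0.00333). In young wild-type libraries Fabp4 was at -0.66 (adjusted p = 0.0129) and Pparg at -0.79 (adjusted p = 0.0483). Fabp4 group means there went from 700 to 339 CPM in females and from 567 to 471 CPM in males. The Lpl call in young libraries ended without wild-type young IFN female 1, at -0.37 (adjusted p = 0.0723). The Fabp4 call ended without it or without wild-type young untreated female 1 (adjusted p = 0.111 and 0.0524). The Pparg call ended on leaving out any 1 of 45 libraries, and that of Lpl in old knock-in libraries, -0.38 (adjusted p = 0.0474), on leaving out any 1 of 42. B cell markers, 5 of 5 found, summed to 17.2 to 1112 CPM in IFN and 4.98 to 43.7 CPM in untreated libraries. T cell markers summed to 0.732 to 12.7 and 0.164 to 1.12 CPM. Mast cell markers had untreated group means of 3.16 to 3.83 CPM in wild-type libraries, against 13.3 to 38.7 CPM with the IFN label, and 3.76 to 5.82 against 4.11 to 7.33 CPM in knock-in libraries. Their part in these changes was not tested. With near-identical libraries joined, 1 of the 10 calls with the IFN label was left, Pdk4 in young wild-type libraries at 3.30 (adjusted p = 0.00149).

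Between the genotypes, untreated libraries gave 0 calls among the 10 genes by edgeR in all 4 pairings and 0 by DESeq2. At an unadjusted p under 0.05 the count was 0 in old females, young females and old males and 1 in young males. Of all 22147 genes, 4302, 2789, 743 and 2566 passed that threshold in the same order. By the adjusted edgeR test the shares of all genes called were 0.00452% in old females, 0.312% in young females, 0.00452% in old males and 0% in young males. With the IFN label, 2 were higher and 2 lower in old knock-in females (4.48%), and 1 higher and 1 lower in young ones (3.79%). Old and young males gave 0 calls (5.92% and 0.0181%). At an unadjusted p under 0.05 their counts were 3 and 2 of the 10 genes, beside 5445 and 1850 of all 22147 genes. DESeq2 called 1 and 1, given here without the share of all genes. Without the pair of wild-type IFN female libraries, 4 of 10 genes were called in old males (2514 of all genes) and 0 in young females (348 of all genes). Those in old males were Pdk4 at -2.09 (adjusted p = 0.0378), Plin2 at 0.33 (adjusted p = 0.0199), Pparg at 0.54 (adjusted p = 0.0439) and Abcg1 at 0.43 (adjusted p = 0.0176). Without all 4 libraries that stand apart, 3 were called in old males, 1 in old females and 0 in young females. The numbers of all genes called were then 2074, 115 and 454 in that order.

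Besides Pdk4, the genes called in old IFN females were Abcg1, Lpl and Cpt1a. Abcg1 was at 294, 109.6, 265, 265 and 199 CPM in wild-type and 359, 355, 342, 409 and 420.3 CPM in knock-in libraries, so the knock-in libraries were the higher ones without overlap, at 0.73 (standard error 0.17, adjusted p = 0.00947). Lpl was at 1511, 674, 1633, 1514 and 1175 CPM against 2266, 2289.6, 1820.3, 1962 and 1948 CPM, again without overlap, at 0.66 (standard error 0.16, adjusted p = 0.0137). The number of all genes that part in this way was not counted. Cpt1a was lower in knock-in libraries, at -0.37 (standard error 0.09, adjusted p = 0.0162). The wild-type library 2 was the lowest in Abcg1 and Lpl, and without it these were 0.56 (adjusted p = 0.0917) and 0.50 (adjusted p = 0.118). Without both it and wild-type young IFN female 1 they were 0.56 (adjusted p = 0.0281) and 0.49 (adjusted p = 0.0385), and 4 of 10 genes were again called in old IFN females, with Angptl4 at -0.90 (adjusted p = 0.0216) in place of Pdk4. Of all genes 93 were then called. The Cpt1a call ended without wild-type 2 or 5 (adjusted p = 0.0917 and 0.0614). In young IFN females Lpl was 0.79 (standard error 0.23, adjusted p = 0.0362), and this call ended without wild-type 1 or knock-in 1 or 2 (adjusted p = 0.254, 0.343 and 0.111). With near-identical libraries joined, 0 of the 6 genotype calls were left, and without knock-in old IFN females 4 and 5 there were 3.

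The IFN label effect differed between genotypes for Abcg1, at 0.52 (standard error 0.14, adjusted p = 0.0112), and for Plin2, at 0.33 (standard error 0.11, adjusted p = 0.0431), beside Pdk4. The Plin2 call ended on leaving out any 1 of 20 libraries. The genotype difference in the age label effect gave 0 of 10 calls by edgeR (0% of all genes), 0 at an unadjusted p under 0.05 and 0 by DESeq2. The genotype difference in the sex effect gave 0 of 10 by edgeR (0.00452%), 1 at an unadjusted p under 0.05 and 0 by DESeq2. Of all 22147 genes, 609 and 3652 were at an unadjusted p under 0.05 in these differences. Over all groups, females had less Cpt1a than males, at -0.12 (standard error 0.04, adjusted p = 0.0244), the only gene called (14.1% of all genes). Without wild-type old IFN female 2, Fabp5 was also called, at -0.20 (adjusted p = 0.0486). The Cpt1a call was lost without the knock-in old untreated males, and also with near-identical libraries joined.

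**Figure D3:**
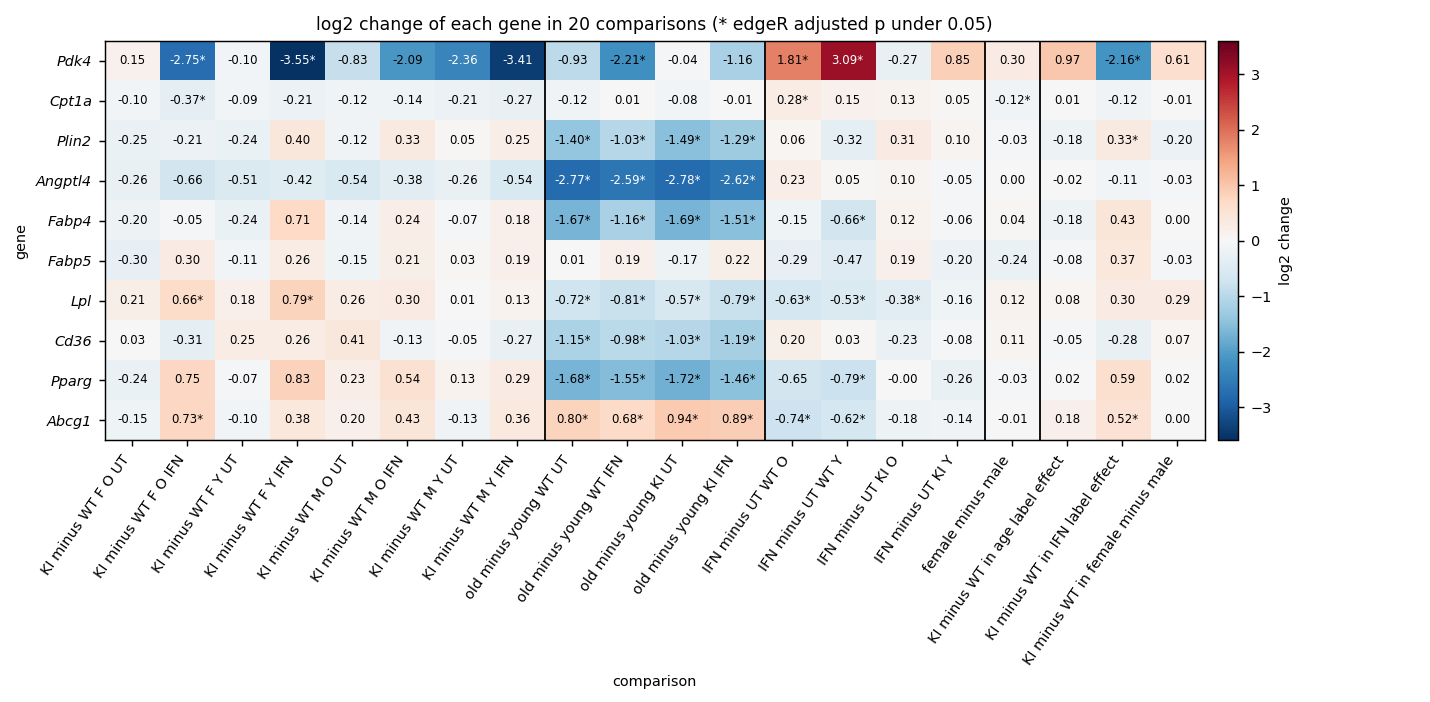
Heat map of the log2 change of each of the 10 genes (rows) in 20 comparisons (columns), red for higher and blue for lower, with an asterisk at an edgeR adjusted p under 0.05. The age label changes of Angptl4 run from -2.78 to -2.59, and Pdk4 reaches -3.55 in young IFN females and 3.09 with the IFN label in young wild-type libraries.

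Lists of the surrounding pathways held genes called in both directions with the age label. None of the lists holds any of the 10 genes, and the lists were drawn up with earlier results of these libraries known. In wild-type untreated libraries, where 24.8% of all genes were higher and 26.7% lower with the old label, the list of PPARs, retinoid X receptors and their coregulators had 3 of 17 genes higher and 9 lower. It had 3 and 9 also in wild-type IFN and in knock-in IFN libraries, but 5 and 6 in knock-in untreated ones. LXR targets and cholesterol efflux genes had 4 of 18 higher and 9 lower in wild-type untreated libraries, and 4 and 9, 3 and 5, and 5 and 9 in wild-type IFN, knock-in untreated and knock-in IFN libraries. In the same order of 4, fatty acid oxidation had 7 and 8, 6 and 9, 5 and 12, and 9 and 6 of 28 genes. Uptake and activation had 5 and 5, 3 and 7, 4 and 6, and 4 and 5 of 16 genes. Lipid droplet and triglyceride turnover had 5 and 5, 6 and 5, 6 and 7, and 7 and 5 of 19 genes. The pyruvate dehydrogenase kinases and complex had 7 and 4, 8 and 4, 6 and 3, and 8 and 4 of 13 genes. Lpin1, a phosphatidate phosphatase and coactivator, was lower at log2 changes of -1.88, -1.82, -1.69 and -1.92 over the 4 combinations, and Ppargc1b, a PPAR coactivator, higher at 1.61, 1.22, 1.68 and 1.55. Apoe, a lipoprotein carrier and LXR target, was lower at -1.66, -1.50, -1.60 and -1.29, opposite to Abcg1. Lipe, the hormone-sensitive lipase, was higher at 0.98, 0.81, 0.85 and 1.09, and Abhd5, which activates the droplet lipase ATGL, lower at -0.76, -0.59, -0.86 and -0.58. Pdk3, another kinase of the Pdk4 family, was higher at 1.04, 1.01, 0.82 and 1.11. Pdk2, which was named outside the rule for list genes, was lower at -0.53, -0.56, -0.58 and -0.37.

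With the IFN label, old wild-type libraries had 1 of 28 genes higher and 10 lower in fatty acid oxidation and 2 of 18 genes higher and 5 lower among LXR targets. Of all 22147 genes, 2131 were higher and 2657 lower there, so that 44.5% of the calls were higher, or 54.8% with RLE in place of TMM factors. Young wild-type libraries had 1 higher and 3 lower in fatty acid oxidation and 2 higher and 1 lower among LXR targets, beside 2014 higher and 1284 lower of all genes. Scd1, a fatty acid desaturase, was 1.67 in old and 2.69 in young wild-type libraries, and its IFN label effect was -1.68 in knock-in relative to wild-type (adjusted p = 0.000587). Msr1, a scavenger receptor that takes up modified lipoprotein, was 0.63 and 0.70, with a genotype difference of -0.67 (adjusted p = 0.00448). Fatty acid oxidation had 0 of 28 genes higher and 0 lower in that difference.

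**Figure D4:**
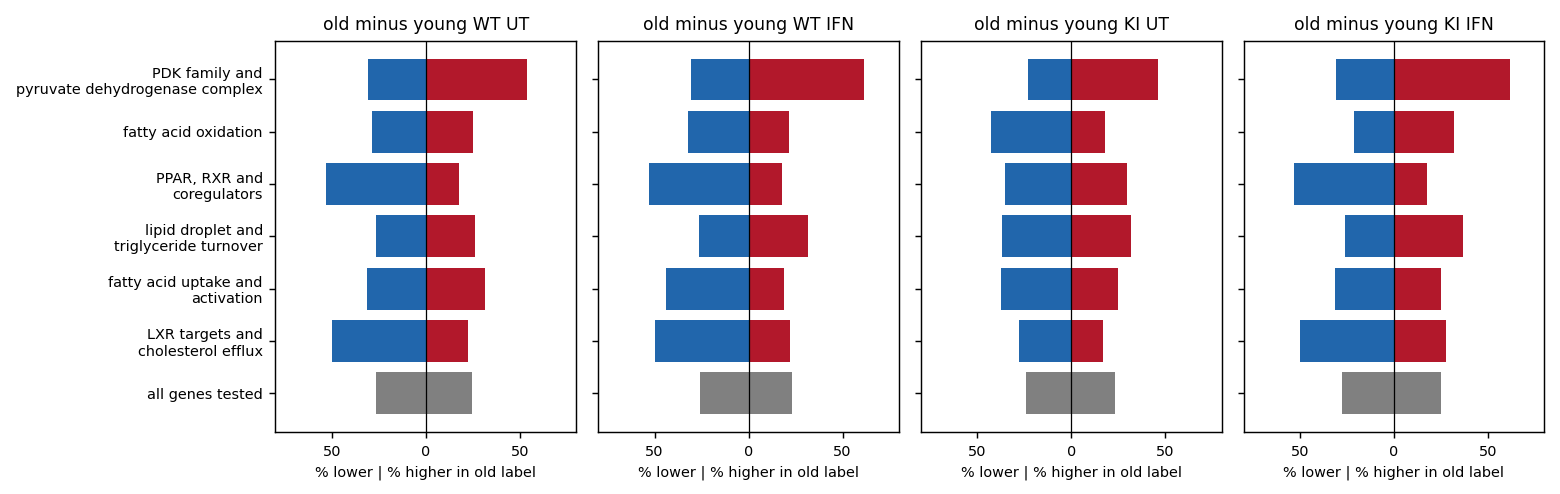
Percentage of the tested genes of each pathway list (rows) called higher (right, red) or lower (left, blue) with the old label, in 4 panels by genotype and treatment label; grey bars are all genes tested. With the old label in wild-type untreated libraries the LXR list has 4 higher and 9 lower, and every list holds genes called in both directions in all 4 panels.

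Within groups, where labels are held fixed, Pparg varied with both fatty acid carriers. As deviations of log2 CPM from the group mean, Pearson's r was 0.947 over the 63 libraries and 0.907 without the pair of wild-type IFN female libraries for Fabp5 with Pparg. For Fabp4 with Pparg it was 0.900 and 0.802. It was 0.951 over the 63 libraries and 0.849 without the pair of wild-type IFN female libraries for Fabp4 with Fabp5, although these 2 differed with the age label. For Plin2 with Angptl4 it was 0.739 over the 63 libraries and 0.659 without the pair of wild-type IFN female libraries, and for Cd36 with Abcg1 0.067 over the 63 libraries and -0.217 without the pair of wild-type IFN female libraries. Libraries share depth and composition, so these values describe this set of libraries and carry no p.

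**Figure D5:**
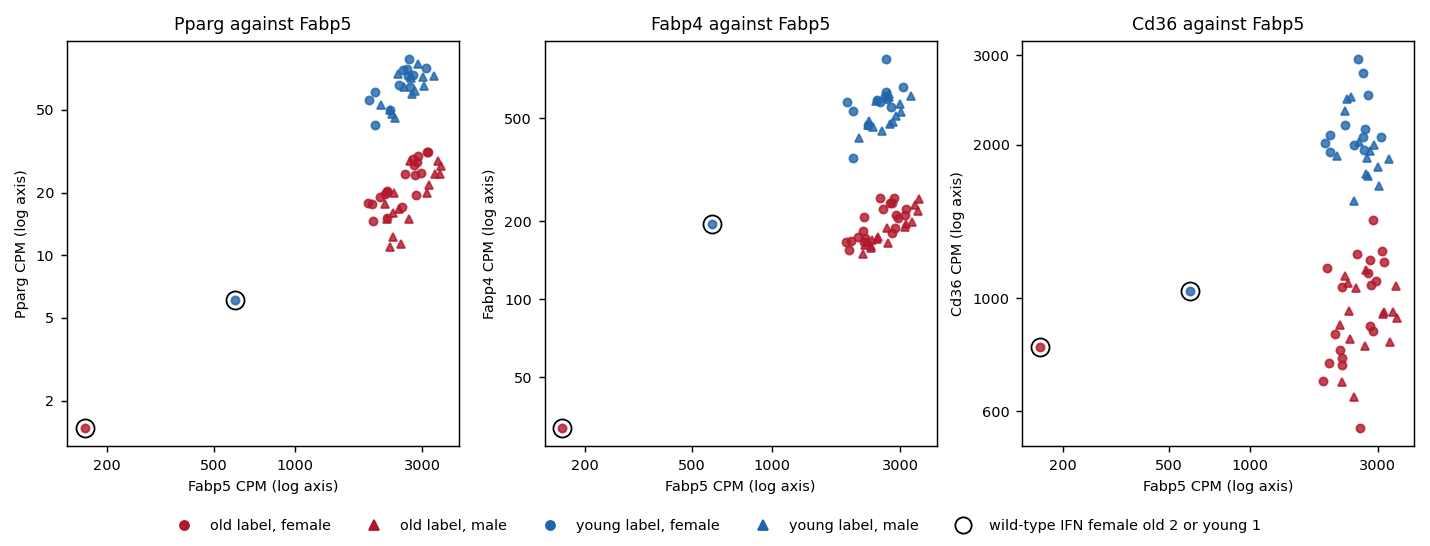
Levels of Pparg, Fabp4 and Cd36 (vertical axes) against Fabp5 (horizontal axes) in 63 libraries, in CPM on log axes; red is the old and blue the young label, circles are females, triangles males, and rings mark the pair of wild-type IFN female libraries. The ringed libraries lie at 165 and 597 CPM of Fabp5, below all others, and r of the within-group deviations of Fabp5 and Pparg is 0.947 with them and 0.907 without.

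The genes whose group means were most like those of Pdk4 were Trappc10 (r = 0.930), Map3k5 (r = 0.929), Bcor (r = 0.917), Nfatc3 (r = 0.912) and Man2a1 (r = 0.908), over 16 group means of log2 CPM. Within groups their r with Pdk4 over the 63 libraries was -0.067 to 0.206.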

How the data were processed

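RNA of 63 libraries of peritoneal macrophages was sequenced as poly(A) RNA with a directional kit, per the labels' protocols. The deposited counts are the authors' whole numbers per gene. The submitters' processing notes name STAR 2.7.9a, DESeq2 1.40.2 and GRCm39; which counter, annotation and strand option made the table is not given in the sources used here. Deposited FPKM values equal the counts divided by 1 factor per library and 1 per gene (17108 genes, largest SD of the log2 ratio 1.91e-08), and were used only to compare levels between genes. Groups came from the sample descriptions.

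Counts were tested with edgeR 4.0.16 in R 4.3.3, in 1 fit of 63 libraries with 16 group means, TMM factors and filterByExpr (22147 of 56748 genes kept). The quasi-likelihood F test was adjusted by Benjamini-Hochberg over all genes within each of 20 comparisons and called at 0.05. Changes with the age or IFN label are the mean of the female and the male change. The sex effect and the interactions are means over the combinations of the remaining labels. The total count was 73.6 to 106.6 M per library, with a median of 98.2 M. Floors of 3 counts cover counting error only. Near-identical libraries were looked for: 0 of 102 pairs within a group agreed within sampling noise. As an alternative, 20 pairs within a group that lay closer than any pair from different groups were joined by averaging, which left 43 libraries. Their squared differences were 3.31 to 7.48 times those of sampling noise. This rule does not tell duplicates from close replicates. DESeq2 1.42.0 and other scalings, filters and sets of libraries were alternatives, given below.

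The 10 genes and the pathway lists were chosen with earlier results of these data known. Named by rule were the 10 genes, up to 2 genes with the smallest p for each list and comparison, and the 5 genes most like Pdk4 by Pearson's r over group means. Not every list gene that the rule allows is named, and Pdk2 was named outside it. Marker lists of other cell types are given beside results. The neutrophil, eosinophil, mast cell and endothelial lists summed to 22.8 to 114.0, 0.925 to 28.5, 0.953 to 79.1 and 4.24 to 38.6 CPM.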

Additional observations from a re-analysis of the deposited data

Results flagged for a closer look

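In 3 of 80 combinations of gene and group of 5 libraries, 1 library stood far from the other 4; chance gives about 1 in 20. Lpl was at 3610.4 CPM in knock-in old untreated female 4, where the others were at 2723 to 2980.2 CPM. Cd36 was at 556 CPM in wild-type old untreated female 1, where the others were at 1079 to 1237 CPM. Pparg was at 1.48 CPM in wild-type old IFN female 2, where the others were at 14.7 to 19.4 CPM.

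The effect of the IFN label differed between the genotypes for 3 of the 10 genes by the edgeR test of the difference, which called 12.0% of all genes. Knock-in minus wild-type was -2.16 on the log2 scale for Pdk4, 0.33 for Plin2 and 0.52 for Abcg1. The Plin2 call ended on leaving out any 1 of 20 libraries and the Pdk4 call on leaving out 1. With near-identical libraries joined, 0 of the 3 calls were left.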

How the results depend on the processing

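The 29 calls with the age label were stable: every alternative gave 29, and leaving out 1 library gave 29 to 30. The 6 genotype calls numbered 3 without knock-in old IFN females 4 and 5, 0 with near-identical libraries joined, and 4 to 8 on leaving out 1 library. With each comparison fitted on its own groups, none of the 6 was left. Of these, Pdk4 in old IFN females failed the filter on low counts and could not be tested, and the others were not called. In that setting 2 others were called, Angptl4 in young untreated females at -0.53 (adjusted p = 0.0459) and Plin2 in young IFN males at 0.25 (adjusted p = 0.0489). The 10 calls with the IFN label became 1 with libraries joined and 8 to 13 on leaving out 1. The 1 call by sex became 3 without all 4 libraries that stand apart (added after seeing the data), 0 with libraries joined, 0 without the knock-in old untreated males and 1 to 2 on leaving out 1. The 3 interaction calls became 5 without wild-type IFN females old 2 and young 1, 0 with libraries joined and 1 to 5 on leaving out 1. Joining leaves 43 libraries in the fit; otherwise the cause was not tested. No called value changed sign.

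No label says that library numbers pair libraries. Over 26 pairs of IFN and untreated libraries r of the deviations was -0.306 to 0.522 (median 0.124, 16 over 0.1), and over 26 old and young pairs -0.727 to 0.696 (median 0.269, 18 over 0.1). Some sets had every pair over 0.1, others did not, so no pairing was assumed over all groups. With the number as a replicate block the calls numbered 6 by genotype, 29 by age label, 10 by IFN label, 1 by sex and 3 by interaction. Among those by IFN label, Lpl in old knock-in libraries was lost (adjusted p = 0.0546) and Pparg in old wild-type libraries gained at -0.73 (adjusted p = 0.0236).

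Counts over all genes moved more. Knock-in against wild-type in old IFN females gave 992 genes, and 582 with no filter on low counts, 168 without knock-in females 4 and 5, 93 without the wild-type pair, and 1 joined or on its own groups. The IFN interaction gave 2666, and 10 joined. Pdk4 has few counts, and could not be tested on its own groups in 11 of 20 comparisons because it failed the filter on low counts.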
